A study of Mus musculus with 18 samples.

Results

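In mouse embryonic stem cells, 167 genes read lower on arrays titled 8h than on arrays titled 0h, and higher again on arrays titled 8h2h, in both of the cell lines studied. They were chosen from measured values. Of 15987 genes tested, 12808 were read on every 0h array, each from its brightest probe matched to a RefSeq transcript. The log2 signal, relative to the 75th percentile of its array, had to differ by -0.8 or less between 8h and 0h and by 0.6 or more between 8h2h and 8h, on group means and in both lines. These thresholds were met by 176 genes (1.37%), and 9 were then left out by symbol (Lefty1, Nanog, Id2, Id4, Klf2, Klf4, Klf11, Klf15 and Tbx3). The 167 members comprised 156 protein-coding genes and 11 long non-coding RNAs. Because these 4 differences chose the members, they are given below as descriptions, with no test.

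Expression was measured on 18 one-colour Agilent arrays, 3 in each of 6 groups. All cells were of strain 129SV, carried an Esrrb knockout and expressed Raf-ErT2, a Raf kinase fused to a hormone-binding domain that responds to 4-hydroxytamoxifen (4OHT). The Rescue line also carried an Esrrb transgene, and the KO line an empty vector, per the labels. An FGF receptor inhibitor, PD173074 at 250 nM, was in the serum and LIF medium for the 24 h before treatment. Those titled 0h were untreated, those titled 8h had 250 nM 4OHT for 8 h, and those titled 8h2h had a Mek inhibitor for 2 h after that. On the 12 treated arrays the source names say the reverse (those titled 8h carry the inhibitor there), and groups here follow the titles. The added 2 h and the inhibitor cannot be told apart. The labels do not say whether replicates a, b and c were separate cultures, so p-values measure only the spread between these arrays. Each slide held 1 array of every group at a fixed place, and this position cannot be told apart from the group.

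Esrrb, the deleted gene, was read first. On the Rescue-labelled arrays a, b and c, its log2 scaled signal was 4.13, 4.21 and 4.87 at 0h, 2.15, 1.75 and 1.84 at 8h, and 1.78, 1.53 and 1.57 at 8h2h. On the KO-labelled arrays it was 5.08, 4.74 and 5.27 at 0h, 4.09, 3.50 and 3.65 at 8h, and 4.30, 3.26 and 4.00 at 8h2h. Esrrb was thus higher on the KO-labelled arrays at 8h and 8h2h without overlap, which goes against the label. Where its probe lies relative to the deletion or the transgene was not checked. Every direction between the lines below therefore rests on the labels, and the lines are called KO-labelled and Rescue-labelled. The KO-labelled 8h2h array b differed from the rest: 88.6% of its probes passed as well above background, against 46.6% to 63.8% on the other 17 arrays. It entered no mean or test below, and its value is given separately. Members of a list of 10 stem-cell markers were above background on every array used. The summed linear signal of 9 trophoblast markers was 174 to 281.5 on Rescue-labelled arrays and 16.31 to 59.3 on KO-labelled arrays, and its part in the line differences was not tested.

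The Raf, Mek and Erk kinases form a cascade that carries FGF signals to the nucleus, and in mouse embryonic stem cells its activity moves cells away from naive pluripotency. Erk activity induces feedback genes such as Dusp6, which encodes an Erk phosphatase, while many genes of the self-renewal network are turned down. A Mek inhibitor stops the cascade above Erk, so transcripts with short lives can change soon after it is added. Dusp6 moved opposite to the members. Its mean was 2.69 ± 0.66 at 0h, 4.67 ± 0.09 at 8h and 0.43 ± 0.24 at 8h2h on Rescue-labelled arrays (SD, n = 3), and 2.34 ± 0.03, 4.58 ± 0.05 (SD, n = 3) and 0.08 ± 0.03 (SD, n = 2) on KO-labelled arrays. In a bulk RNA measurement, fewer cells of a type and less RNA per cell cannot be told apart.

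Across the members, the median array value was near -1 at 0h, near -3 at 8h and between those at 8h2h. On Rescue-labelled arrays the median over the 167 members was -1.11, -1.16 and -1.12 at 0h, -2.88, -3.01 and -2.87 at 8h, and -1.61, -1.83 and -1.80 at 8h2h. In the KO-labelled line it read -0.80, -1.03 and -1.01 at 0h, -2.60, -2.49 and -3.07 at 8h, and -1.48 and -1.52 at 8h2h. The 3 times did not overlap in either line. The choice of members places 8h below the other times but sets no order between 0h and 8h2h. The median over all genes read at 0h stayed between 0.79 and 0.87 on these 17 arrays.

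**Figure D1:**
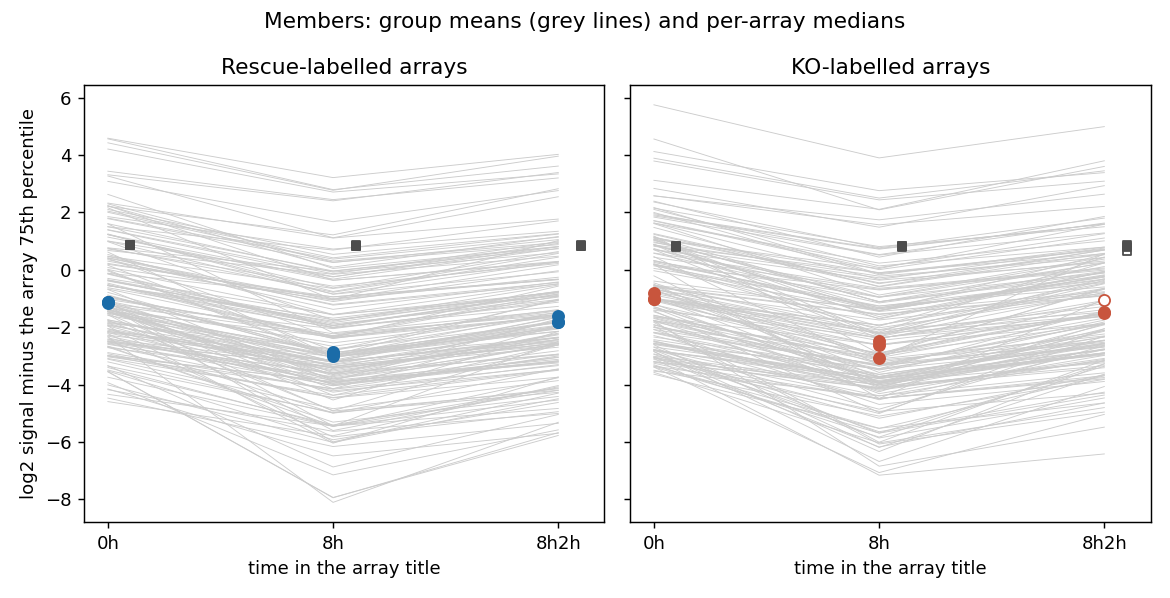
Log2 signal minus the array 75th percentile (y axis) by time in the array title (x axis). Grey lines join the group means of each of the 167 members, coloured circles are the median member on each array, squares are the median of all genes read at 0h, and open symbols are the KO-labelled 8h2h array left out of the means. The member medians dip to between -2.49 and -3.07 at 8h, while the squares stay level.

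The drop from 0h to 8h had a median of -1.61 on the log2 scale on Rescue-labelled arrays, with a range of -5.77 to -0.81, and of -1.65 on KO-labelled arrays, with a range of -5.07 to -0.82. The rise from 8h to 8h2h had a median of 0.97 (0.60 to 2.95) and 1.13 (0.61 to 3.66). The return was partial for most members. The share of the log2 drop regained had a median of 60.3% on Rescue-labelled arrays and 67.6% on KO-labelled arrays, and was higher in the latter for 108 of 167 members. It was under 50% for 44 members on Rescue-labelled arrays and for 34 on KO-labelled arrays. At 8h2h, 14 members on Rescue-labelled arrays and 27 on KO-labelled arrays were at or above their own 0h mean, 9 of them in both lines. Each of the 4 thresholds alone was passed by 9.24% (Rescue-labelled, 8h), 8.63% (KO-labelled, 8h), 3.29% (Rescue-labelled, 8h2h) and 5.16% (KO-labelled, 8h2h) of the 12808 genes. Of the 744 genes lower by 0.8 or more in both lines at 8h, 176 (23.7%) also passed the 8h2h thresholds.

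**Figure D2:**
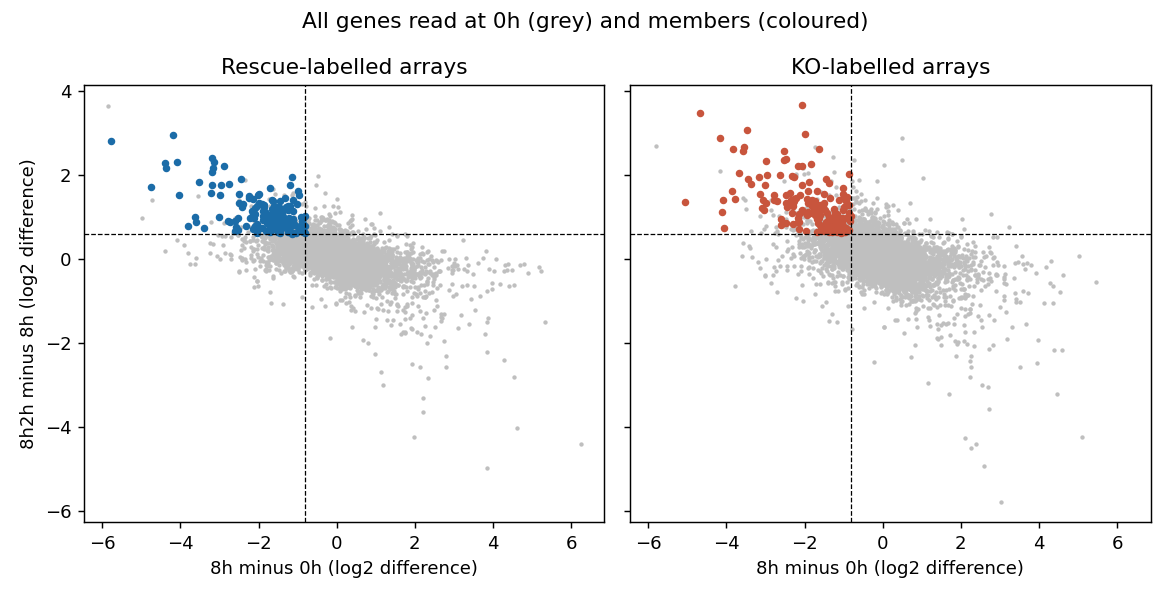
The 8h minus 0h difference (x axis, log2) against the 8h2h minus 8h difference (y axis, log2) for the 12808 genes read at 0h (grey) and the 167 members (coloured), per line. Dashed lines are the thresholds of -0.8 and 0.6, and grey points past both in 1 panel failed in the other line or were left out by symbol.

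The thresholds cut through a continuous range. Kank1 (0.60 for the Rescue-labelled rise) and Map2k6 (-0.81 for the Rescue-labelled drop) were just inside. Slc45a4, whose KO-labelled drop rounds to -0.80, and 1810010H24Rik, whose Rescue-labelled rise rounds to 0.60, were just outside. The left-out KO-labelled 8h2h array played no part in the choice, but the 8h array of its slide did. On the left-out array all 167 members were higher than on that 8h array, as were 35.3% of all genes read at 0h. Low 8h values chose the members, so the choice partly fixes these member counts and those that follow for this array. By more than 0.6 the counts were 129 of 167 members and 15% of genes. Dim genes read high on the left-out array. Among the 7789 genes at or above the 75th percentile on the KO-labelled 8h arrays, 10.5% were higher there, and all 21 members in that range were. By more than 0.6 the figures were 0.488% of those genes and 6 of the 21 members. Of 33 other probes of 32 member genes read at 0h, 31 moved in the same direction in all 4 differences and 18 passed all 4 thresholds.

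Promoter sequences show what the members carry at their starts. Windows of 300 bases, from 250 before to 50 after the annotated start, were taken from RefSeq on GRCm38.p6, and 129 of the 167 members matched, with 171 windows. The windows of 6 members described below are printed 5′ to 3′ on the strand of the gene. They were picked to show deeply lowered genes (Spic, Hhip, Hlf), signalling genes (Fgf4, Smad6) and a cell-cycle inhibitor (Cdkn1b). Capitals mark matches, on either strand, to 16 short motifs whose letters follow. Hhip is at chr8:80057959-80058258 (minus strand), Hlf at chr11:90390868-90391167 (minus), Spic at chr10:88682974-88683273 (minus), Fgf4 at chr7:144861136-144861435 (plus), Smad6 at chr9:64022010-64022309 (minus) and Cdkn1b at chr6:134920151-134920450 (plus).
Spic: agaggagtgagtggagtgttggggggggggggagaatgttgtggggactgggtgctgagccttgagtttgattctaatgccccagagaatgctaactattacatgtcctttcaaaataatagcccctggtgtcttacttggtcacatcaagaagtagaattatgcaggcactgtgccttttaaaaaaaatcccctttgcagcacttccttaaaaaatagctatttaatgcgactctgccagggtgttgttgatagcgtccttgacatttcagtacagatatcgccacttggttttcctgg
Hhip: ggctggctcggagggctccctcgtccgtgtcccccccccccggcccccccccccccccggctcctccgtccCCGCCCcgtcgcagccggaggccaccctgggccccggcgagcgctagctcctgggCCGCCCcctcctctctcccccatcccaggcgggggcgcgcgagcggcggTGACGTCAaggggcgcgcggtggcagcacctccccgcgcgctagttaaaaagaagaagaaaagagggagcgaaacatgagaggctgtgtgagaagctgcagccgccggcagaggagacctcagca
Hlf: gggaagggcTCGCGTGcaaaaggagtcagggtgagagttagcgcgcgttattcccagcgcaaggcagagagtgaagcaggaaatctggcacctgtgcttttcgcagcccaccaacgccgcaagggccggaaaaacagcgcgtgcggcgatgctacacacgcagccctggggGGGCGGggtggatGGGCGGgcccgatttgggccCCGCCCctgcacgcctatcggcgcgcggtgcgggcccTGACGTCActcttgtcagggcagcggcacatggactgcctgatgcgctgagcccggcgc
Fgf4: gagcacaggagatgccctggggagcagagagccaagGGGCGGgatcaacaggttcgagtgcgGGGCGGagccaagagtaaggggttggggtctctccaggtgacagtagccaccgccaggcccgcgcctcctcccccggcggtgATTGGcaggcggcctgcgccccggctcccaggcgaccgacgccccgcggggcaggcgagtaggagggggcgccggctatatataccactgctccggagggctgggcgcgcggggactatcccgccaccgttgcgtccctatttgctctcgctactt
Smad6: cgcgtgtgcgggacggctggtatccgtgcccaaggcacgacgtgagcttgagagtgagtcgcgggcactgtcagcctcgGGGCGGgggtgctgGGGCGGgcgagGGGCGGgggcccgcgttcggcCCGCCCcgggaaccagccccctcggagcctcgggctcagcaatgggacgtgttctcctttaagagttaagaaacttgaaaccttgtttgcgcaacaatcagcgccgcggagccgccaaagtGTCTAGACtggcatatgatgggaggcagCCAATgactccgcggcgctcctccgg
Cdkn1b: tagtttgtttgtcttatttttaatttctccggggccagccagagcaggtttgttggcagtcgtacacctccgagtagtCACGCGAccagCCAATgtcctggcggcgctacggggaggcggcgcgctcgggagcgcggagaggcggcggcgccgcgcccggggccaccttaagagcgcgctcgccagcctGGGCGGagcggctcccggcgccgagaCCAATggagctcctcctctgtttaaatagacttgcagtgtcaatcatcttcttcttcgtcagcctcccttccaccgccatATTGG
In these windows Hhip and Hlf each hold a CRE match, Smad6 a palindromic SMAD match, Fgf4 GC boxes and a CCAAT box, and Cdkn1b a GC box, 3 CCAAT boxes and an XRE match. None of the 16 motifs was found in the Spic window, which says only that these letters are not in it.

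Against genes read at 0h, the motif searched that differed most in share was ETS (CCGGAAG), and against all windows it was the GC box. ETS is the core bound by a family of factors that includes Erk substrates. It was in 2.34% of member windows, those of Arhgef18, Casc1, Fam53b and Tmem19, against 16.8% of windows of genes read at 0h and 8.86% of all windows in the table. The GC box (GGGCGG), bound by SP and KLF factors, was in 63.7% of member windows, 60.9% of windows of genes read at 0h and 35.7% of all. The CACCC box (CCACACCC) was in 6.43%, 3.85% and 3.56%. The ETS and CACCC box shares rested on 4 and 11 of the 171 member windows, and many of the shares that follow also rested on few. In the same order, the CCAAT box (CCAAT) was in 37.4%, 37.9% and 37.4%, the TATA box (TATAAA) in 8.77%, 7.64% and 13.6%, and the E-box (CACGTG) in 5.85%, 9.92% and 7.15%. FOXO (GTAAACA) was in 3.51%, 2.57% and 3.65%, STAT (TTCNNNGAA) in 6.43%, 6.80% and 8.30%, and the ESRRB motif (AAGGTCA) in 4.09%, 3.37% and 4.72%. The Esrrb motif was thus about as frequent in members as elsewhere. XRE (TNGCGTG), bound by the Ahr receptor, was in 9.94%, 7.84% and 5.07%, CRE (TGACGTCA) in 2.34%, 3.06% and 1.79%, and AP-1 (TGANTCA) in 4.68%, 4.99% and 7.81%. OCT (ATTTGCAT) was in 2.92%, 1.29% and 1.74%, TCF (CTTTGAT) in 2.34%, 2.52% and 3.73%, SMAD (GTCTAGAC) in 1.17%, 0.308% and 0.213%, and GLI (GACCACC) in 3.51%, 2.85% and 2.80%. A window counted once per motif, both strands were searched, and matches could overlap each other. Member windows had a median GC content of 61% and 17 CpG sites, against 60.3% and 20 for genes read at 0h and 52.7% and 7 for all. A match is a description of the letters, not a site in use.

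**Figure D3:**
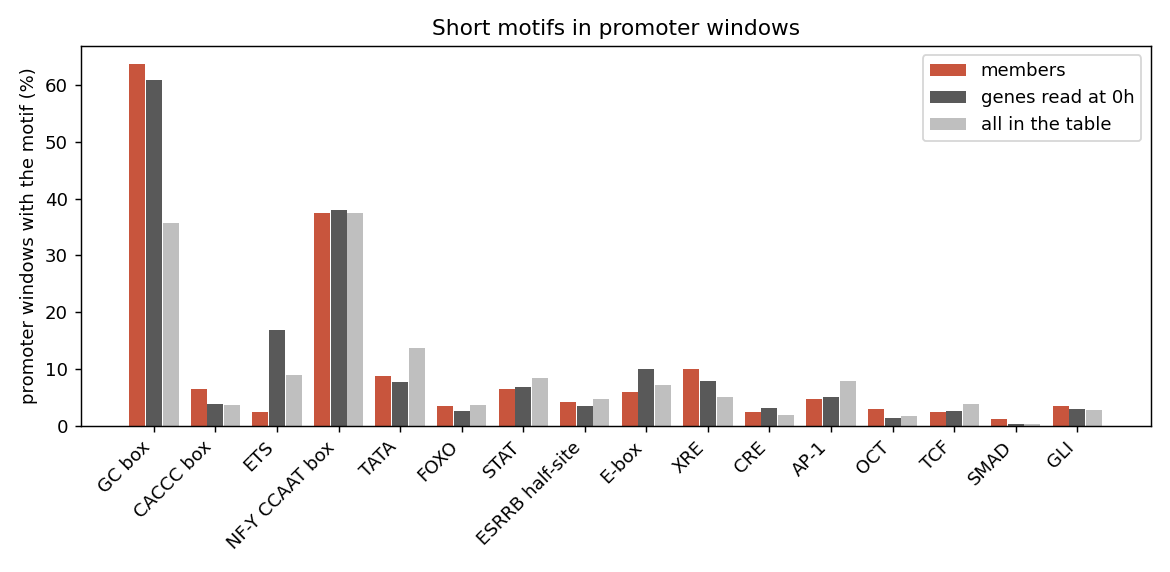
Share of promoter windows (y axis, percent) that hold each of 16 short motifs (x axis) among members (171 windows), genes read at 0h (12980 windows) and all genes in the table (32851 windows). The ETS bar of the members, at 2.34%, is the one furthest below both others.

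Several transcription factors were among the members with the lowest 8h minus 0h values, as were Cyp1a1, Hhip, Lrtm2 and Vax2os. Spic encodes an ETS-family factor known from macrophages of the spleen and found in embryonic stem cells. Its signal on Rescue-labelled arrays a, b and c was -0.62, -1.31 and -1.82 at 0h, -5.49, -5.58 and -5.24 at 8h, and -2.08, -2.83 and -2.56 at 8h2h. KO-labelled arrays gave 0.62, -0.14 and 0.08 at 0h, -4.32, -4.61 and -4.53 at 8h, and -0.81 and -1.24 at 8h2h, with 0.30 on the left-out array. The 3 times did not overlap in either line. The drop was 18.2-fold and 25.5-fold, and the rise 7.71-fold and 11.0-fold, in the Rescue-labelled and KO-labelled cells, although at 8h only 2 and 1 of 3 arrays read it well above background.

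Hlf, a PAR bZIP factor related to the clock output gene Dbp, read -2.54, -3.27 and -4.19 at 0h and -4.65, -5.25 and -5.23 at 8h2h on Rescue-labelled arrays. The KO-labelled values were -1.43, -1.90 and -2.17 at 0h and -2.92 and -3.37 at 8h2h. At 8h it was not well above background on any array of either line, so its drop is a bound. The 0h mean was at least 5.82-fold higher than at 8h on Rescue-labelled arrays and at least 8.18-fold on KO-labelled arrays, and the 8h2h mean at least 1.79-fold and 3.29-fold higher than at 8h. Bounds set the bright group against the dimmest signal still well above background on each array of the dim group. Hlf was the member among 14 tested genes of a circadian clock list. Of the 13 others, 3 were called higher and 3 lower at 8h in each line. Over all genes, 15.9% and 14.5% were called higher and 19.4% and 17% lower in the Rescue-labelled and KO-labelled cells. Counts of calls in gene lists leave out the members, since the choice of members fixes their part. The 8h shares over all genes just given also stand beside the 8h counts of the lists below.

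Hes3, a basic helix-loop-helix repressor of the Hes family, was also not well above background at 8h. Its 0h mean was -2.33 ± 0.21 and -2.79 ± 0.35 (SD, n = 3), at least 11.7-fold and 4.20-fold above 8h in the Rescue-labelled and KO-labelled cells. Foxr2, a forkhead gene on the X chromosome, was at least 5.04-fold and 2.94-fold higher at 0h than at 8h. With 8h known only as a bound, the size of its return is not compared between the lines. Foxr2 read -5.06, -6.54 and -5.41 at 8h2h on Rescue-labelled arrays, against -3.39, -3.76 and -3.50 at 0h. The -6.54 of array b lay below the dimmest signal well above background there (-5.752). On KO-labelled arrays Foxr2 read -3.06 and -3.48 at 8h2h, against -3.14, -3.20 and -3.58 at 0h. The KO-labelled 8h2h values thus overlapped that line's 0h values, and the Rescue-labelled ones lay below theirs. Lrtm2, which encodes a leucine-rich repeat membrane protein, was at least 5.01-fold and 4.76-fold higher at 0h than at 8h. Pknox2, a TALE homeobox gene, had a small return, from -4.92 ± 0.34 at 8h to -4.20 ± 0.53 at 8h2h on Rescue-labelled arrays (SD, n = 3), against -1.53 ± 0.23 at 0h. On KO-labelled arrays Pknox2 was not well above background at 8h or 8h2h.

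Other members that encode transcription regulators were named after their values were seen. Myb, a factor of progenitor cells, had means of 0.16, -2.81 and -1.06 at 0h, 8h and 8h2h on Rescue-labelled arrays and -1.08, -2.93 and -0.68 on KO-labelled arrays. Mycl, a Myc-family gene, had -1.46, -3.69 and -2.21, and -0.95, -3.29 and -1.88. Elf3, an ETS factor of epithelia, had 1.23, -0.63 and 0.64, and 0.20, -1.96 and 0.24. Elf3 was back at its 0h mean on KO-labelled arrays and below it on Rescue-labelled arrays. Thra encodes a thyroid hormone receptor, and its means were -0.35, -1.75 and -0.76, and 0.05, -1.27 and -0.32. A second Thra probe changed by -1.29 and -1.72 at 8h. It rose by only 0.29 and 0.50 from 8h to 8h2h (log2), under the 0.6 of the rule. Mxd3, a Max partner that opposes Myc, ended at or above its 0h mean in both lines, by 0.14 and 0.35 in the Rescue-labelled and KO-labelled cells.

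A list of transcriptional repressors had 29 tested genes, and Sall3 was among its members. Sall3, a zinc-finger gene of the spalt family, read -0.88, -0.64 and -0.54 at 0h, -4.05, -3.89 and -3.65 at 8h, and -1.55, -1.77 and -1.78 at 8h2h on Rescue-labelled arrays. In KO-labelled cells the readings were 0.26, 0.18 and 0.19, then -1.55, -1.70 and -1.82, then -0.08 and -0.07. The Rescue-labelled drop of 9.05-fold was larger than the KO-labelled drop of 3.73-fold. The repressor list had 27 tested genes that were not members. At 8h, 7 and 4 of them were called higher and 6 and 7 lower in the Rescue-labelled and KO-labelled cells. Their medians were -0.02 and -0.13, against -0.05 and -0.04 over all genes.

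Among secreted signals, Fgf4 and Nodal were members. Fgf4 encodes the FGF that feeds the Erk cascade in embryonic stem cells. Fgf4 read 4.68, 4.71 and 4.30 at 0h, 2.97, 2.78 and 2.63 at 8h, and 3.72, 3.63 and 3.50 at 8h2h on Rescue-labelled arrays. On KO-labelled arrays it read 5.78, 5.31 and 6.15, then 4.07, 3.86 and 3.77, then 5.06 and 4.92, with 4.43 on the left-out array. The drop was 3.41-fold and 3.60-fold and the rise 1.77-fold and 2.13-fold, so 46.4% and 58.9% of the log2 drop was regained. Fgf4 was the sole member among 24 tested genes of a naive pluripotency list that holds none of the symbols left out. Of the 23 others, 14 and 11 were called lower and 3 and 5 higher at 8h in the Rescue-labelled and KO-labelled cells. Over all genes, 19.4% and 17% were called lower and 15.9% and 14.5% higher. At 8h2h against 8h, 0 and 1 of the 23 were called higher and 6 and 3 lower.

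Nodal, a TGF-beta ligand that acts through Smad2 and Smad3, read 4.44, 4.42 and 4.41 at 0h, 2.82, 2.80 and 2.70 at 8h, and 4.08, 3.99 and 3.81 at 8h2h on Rescue-labelled arrays. KO-labelled arrays gave 3.73, 4.07 and 3.87, then 2.55, 2.78 and 2.17, then 3.45 and 3.45. Smad6 encodes an inhibitory Smad of the BMP branch and is itself a BMP target. Smad6 read -2.78, -2.67 and -3.49 at 0h, -3.83, -3.72 and -4.19 at 8h, and -2.83, -3.18 and -3.52 at 8h2h on Rescue-labelled arrays. The KO-labelled values were -1.28, -1.94 and -1.68, then -2.02, -2.96 and -2.87, then -1.79 and -1.95. The Smad6 0h and 8h2h arrays overlapped in both lines. The list of TGF-beta and BMP genes had 24 tested, 22 of them not members. At 8h, 3 and 5 of the 22 were called higher and 7 and 9 lower in the Rescue-labelled and KO-labelled cells. From 8h to 8h2h, 1 and 3 of the 22 were called higher and 4 and 4 lower. Over all genes, 2.33% and 3.35% were called higher and 2.16% and 2.57% lower in that step. Rgma, which encodes a GPI-anchored BMP co-receptor and neogenin ligand, had a rebound on KO-labelled arrays that its probes did not share in size. On the brightest probe, Rgma read -0.78, -1.10 and -1.20 at 0h, -3.05, -2.90 and -3.35 at 8h, and 0.61 and 0.51 at 8h2h there, a rise of 12.6-fold that ended above every 0h array. On Rescue-labelled arrays its 8h2h values of -0.48, -1.17 and -1.11 lay within the span of its 0h values. A second Rgma probe read at 0h changed by -0.75 at 8h and 0.13 from 8h to 8h2h on Rescue-labelled arrays, and by -0.23 and 0.32 on KO-labelled arrays (log2).

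Feedback inhibitors of the Hedgehog pathway were also members. Ptch1 encodes the Hedgehog receptor and Hhip a decoy that binds the ligand, and both are Hedgehog targets. Ptch1 read -1.33, -0.57 and -0.46 at 0h, -3.61, -2.57 and -2.67 at 8h, and -2.06, -1.70 and -1.68 at 8h2h on Rescue-labelled arrays. In KO-labelled cells the readings were -1.52, -1.15 and -1.38, then -2.73, -2.33 and -2.76, then -1.62 and -1.59. Hhip read -4.33, -3.72 and -3.74 at 0h and -5.53, -5.77 and -5.43 at 8h2h on Rescue-labelled arrays, and -1.40, -2.79 and -1.14 at 0h on KO-labelled arrays. The -5.77 of Rescue-labelled array b lay below the dimmest signal well above background there (-5.752). At 8h Hhip was not well above background, and its 0h mean was at least 3.86-fold and 8.51-fold higher. On KO-labelled arrays it was not well above background at 8h2h either, so its rise there has no bound. The Hedgehog list, written after the members were seen, had 11 tested genes that were not members, 2 called higher and 5 lower at 8h in each line. The shares of all genes called at 8h were 15.9% and 14.5% higher and 19.4% and 17% lower.

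Secreted Wnt antagonists gave 3 members of 8 tested in a list also written after the members were seen. Sfrp1 and Sfrp2 encode frizzled-related proteins that bind Wnt, and Dkk3 a Dickkopf family protein. Sfrp1 read -2.17, -2.67 and -3.24 at 0h, -5.45, -5.15 and -5.31 at 8h, and -4.22, -4.44 and -4.57 at 8h2h on Rescue-labelled arrays. The KO-labelled readings were 1.18, -0.19 and 0.40, then -2.51, -3.90 and -3.51, then -1.62 and -2.16. Sfrp1 regained 34.2% and 37.6% of its log2 drop, so it stayed below every 0h array of its line. Sfrp2 was lowered less, with means of 0.41, -1.20 and -0.44 on Rescue-labelled arrays and 0.14, -1.31 and -0.44 on KO-labelled arrays. Dkk3 had -1.91, -3.53 and -2.43, and -0.50, -3.94 and -2.06. The list had 5 tested genes that were not members, 1 and 1 called higher and 1 and 3 lower at 8h. Among all genes, 15.9% and 14.5% were called higher and 19.4% and 17% lower at 8h. In the step from 8h to 8h2h, 0 of the 5 were called in either line. Efna1, which encodes an ephrin ligand, regained the largest share on Rescue-labelled arrays, 171% of its log2 drop, with means of -1.83, -2.97 and -1.02. On KO-labelled arrays Efna1 had -2.69, -3.77 and -2.97.

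Cell-cycle and cell-death genes included Cdkn1b, Ccno, Bik and Bbc3. Cdkn1b encodes p27, an inhibitor of cyclin-dependent kinases and a FoxO target. It read 0.56, 0.22 and -0.55 at 0h, -1.01, -1.19 and -0.96 at 8h, and -0.08, -0.45 and -0.24 at 8h2h on Rescue-labelled arrays. In the KO-labelled line it read 0.91, 0.64 and 0.91, then -0.07, -0.52 and -0.25, then 0.60 and 0.45. The drop was 2.19-fold and 2.15-fold and the rise 1.74-fold and 1.75-fold. Its genome neighbours Gpr19 and the lncRNA Lockd were members too, with means of 1.80, 0.37 and 1.14 for Gpr19 and -0.51, -2.40 and -1.38 for Lockd on Rescue-labelled arrays. On KO-labelled arrays they had 1.88, 0.72 and 1.60, and -0.39, -1.41 and -0.26. In a list of 28 tested FoxO genes and targets, the members were Cdkn1b and Foxo6, a FoxO factor best known from neurons. Foxo6 had means of -0.88, -2.98 and -2.01, and 0.87, -2.31 and -0.36. Of the 26 tested genes of the list that were not members, 8 and 7 were called higher and 9 and 7 lower at 8h. From 8h to 8h2h, 1 and 5 of them were called higher and 2 and 1 lower. Over all genes, 2.33% and 3.35% were called higher and 2.16% and 2.57% lower.

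Ccno encodes a cyclin-like protein of multiciliated cells. It read 2.48, 2.01 and 1.99 at 0h, -0.91, -1.03 and -1.18 at 8h, and 1.65, 0.80 and 0.62 at 8h2h on Rescue-labelled arrays. On KO-labelled arrays its 0h values spread widely, at -1.01, 1.05 and -1.63, and it read -2.58, -1.25 and -2.68 at 8h and 0.48 and 0.42 at 8h2h. Bbc3 encodes the BH3-only death protein Puma, a p53 target. Bbc3 returned fully in both lines, with 3.49, 3.24 and 3.21 at 0h, 2.38, 2.35 and 2.47 at 8h, and 3.41, 3.43 and 3.33 at 8h2h on Rescue-labelled arrays, and 2.25, 2.80 and 2.67, then 1.64, 2.23 and 1.35, then 2.70 and 2.57 on KO-labelled arrays. Its 0h and 8h2h arrays overlapped. Bik, another BH3-only gene, had means of -1.28, -3.04 and -2.14, and -3.35, -4.48 and -3.75. Bbc3 was 1 of 18 tested genes of a p53 target list. Of the 17 others, 3 were called higher and 7 lower at 8h in each line. In a list of BH3-only genes written after the members were seen, 6 tested genes were not members, and at 8h 4 and 4 of them were called higher and 2 and 1 lower. Beside both lists, 15.9% and 14.5% of all genes were called higher and 19.4% and 17% lower at 8h.

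Some members ended above where they began. Camk2n1 encodes an inhibitor of the calcium kinase CaMKII. It read -5.44, -4.55 and -3.78 at 0h, -5.84, -5.83 and -5.67 at 8h, and -3.73, -4.21 and -4.16 at 8h2h on Rescue-labelled arrays, and -2.73, -3.83 and -2.52, then -4.67, -5.23 and -5.12, then -1.98 and -2.11 on KO-labelled arrays. At 8h, its readings on Rescue-labelled array b and KO-labelled arrays b and c lay below the dimmest signal well above background there. Those 8h readings are thus near background. The KO-labelled 8h2h arrays were above every 0h array of that line, and the Rescue-labelled 8h2h and 0h arrays overlapped. Camk2b, a subunit of that kinase, had means of -1.03, -2.23 and -1.56, and 0.26, -1.26 and -0.60. Kbtbd11, a Kelch and BTB domain gene, read 2.04, 2.16 and 2.42 at 0h, 1.24, 1.36 and 1.06 at 8h, and 2.86, 2.95 and 2.66 at 8h2h on Rescue-labelled arrays. On KO-labelled arrays it read 3.25, 2.82 and 3.27, then 2.28, 2.00 and 2.04, then 3.85 and 3.75, above every 0h array in both lines. Its neighbour Gm35340, a lncRNA, was a member and had means of -2.28, -3.19 and -2.43, and -0.88, -2.39 and -1.07. The other members at or above their 0h mean in both lines, besides Camk2n1, Kbtbd11, Mxd3 and Bbc3, included Rasl11b, Micall2, Slc11a1 and 9530077C05Rik.

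The Ahr receptor and its target Cyp1a1 were both members. Ahr is a ligand-activated factor and Cyp1a1 a cytochrome P450 that oxidises aromatic compounds. Ahr read 0.32, 0.13 and 0.61 at 0h, -1.16, -1.46 and -1.52 at 8h, and -0.26, -0.59 and -0.41 at 8h2h on Rescue-labelled arrays. The KO-labelled values were -1.13, -0.59 and -1.30, then -2.68, -1.65 and -2.80, then -1.42 and -1.34. Cyp1a1 read -1.25, -1.12 and -1.38 at 0h and -4.61, -4.28 and -4.00 at 8h2h on Rescue-labelled arrays, where its 0h mean was at least 24.8-fold above 8h. On KO-labelled arrays Cyp1a1 read -3.41, -2.95 and -2.90 at 0h, at least 3.43-fold above 8h, and was not well above background at 8h or 8h2h. With Hhip and Pknox2, it was among the 3 members furthest below 0h at 8h2h by the mean of both lines. Tiparp, another Ahr target and no member, went the other way, with means of 0.95, 2.70 and 0.94 at 0h, 8h and 8h2h on Rescue-labelled arrays and 1.07, 3.14 and 1.18 on KO-labelled arrays. In a list of this pathway, written after the members were seen, 7 tested genes were not members, and at 8h 1 and 1 of them were called higher and 3 and 4 lower in the Rescue-labelled and KO-labelled cells. The shares of all genes called then were 15.9% and 14.5% higher and 19.4% and 17% lower.

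**Figure D4:**
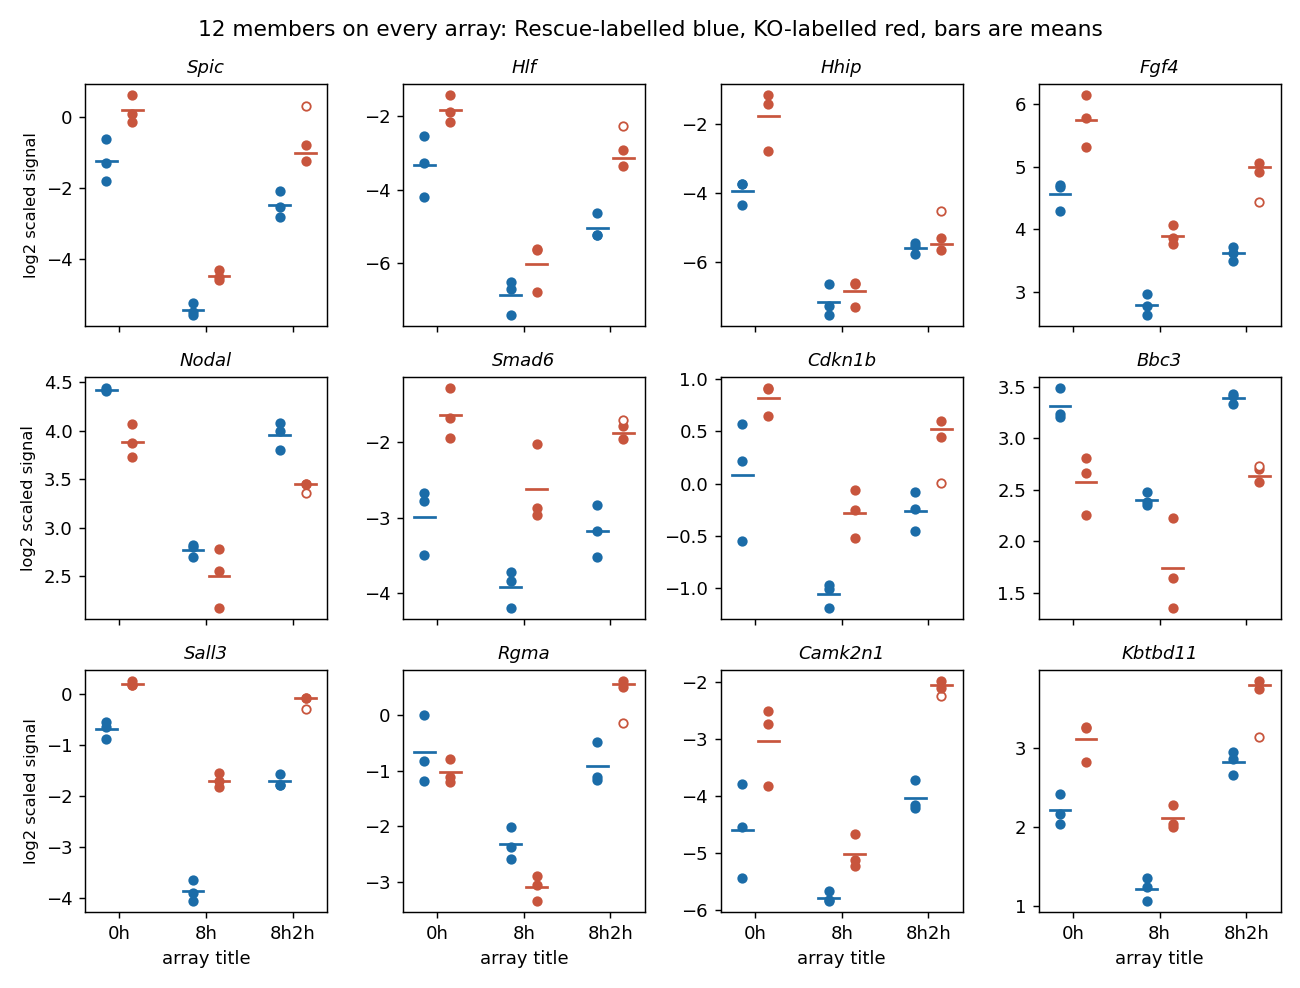
Log2 scaled signal (y axis) of 12 members on every array, by array title (x axis), with Rescue-labelled arrays in blue, KO-labelled arrays in red, bars at group means and the left-out array as an open circle. Spic drops from between -1.82 and 0.62 at 0h to between -5.58 and -4.32 at 8h, and Kbtbd11 ends above 0h in both lines.

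Members with roles in lipid and acetate use were Cpt1a, Acot1, Acot2, Acss1, Pnpla3 and G0s2, of 22 tested genes in a list written after the members were seen. Cpt1a, which admits fatty acids to mitochondria, had means of -0.39, -1.84 and -0.75 on Rescue-labelled arrays and 1.03, -1.11 and -0.05 on KO-labelled arrays. Acss1, a mitochondrial acetyl-CoA synthetase, had 0.62, -3.01 and -2.02, and 1.15, -1.12 and 0.25, so it stayed far below 0h on Rescue-labelled arrays. Pnpla3, a lipid droplet enzyme, had -1.46, -4.00 and -3.04, and -0.64, -2.96 and -1.88. A second Pnpla3 probe changed by -2.05 and -1.78 at 8h. It rose by only 0.26 and 0.49 from 8h to 8h2h (log2), under the 0.6 of the rule. Acot1 and Acot2 are adjacent, near-identical thioesterase genes whose probes may share transcripts, so their separate values are uncertain. Acot1 had 1.00, -0.25 and 0.92, and 0.98, -0.94 and 0.38. Of the 16 tested genes of this list that were not members, 2 and 2 were called higher and 6 and 5 lower at 8h. From 8h to 8h2h, 0 and 0 of them were called higher and 0 and 0 lower. Among all genes, 15.9% and 14.5% were called higher and 19.4% and 17% lower at 8h. In the later step the shares were 2.33% and 3.35% higher and 2.16% and 2.57% lower.

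Regulators of Ras and of G proteins gave Rasgrp1, Rasgef1a, Rgs11, Rgs14 and Rasl11b, of 20 tested in a list written after the members were seen. Rasgrp1 is an exchange factor that loads Ras with GTP. Rasgrp1 had means of -1.20, -3.65 and -1.75 on Rescue-labelled arrays and -1.43, -4.97 and -2.31 on KO-labelled arrays. The mean of -4.97 is near background. It lies below the dimmest signal well above background on KO-labelled 8h arrays b and c (-4.767 and -4.575). Rasgef1a, another exchange factor, had -0.01, -2.99 and -1.47, and -0.21, -4.06 and -2.46. Rgs11 and Rgs14 speed the switching off of G proteins. Rgs11 moved less than these exchange factors, with 0.42, -1.04 and 0.17, and -0.61, -1.56 and -0.82. Of the 15 tested genes of this list that were not members, 6 and 7 were called higher and 3 and 2 lower at 8h, and 1 and 1 higher and 2 and 2 lower from 8h to 8h2h. Among all genes, 15.9% and 14.5% were called higher and 19.4% and 17% lower at 8h. In the later step the shares were 2.33% and 3.35% higher and 2.16% and 2.57% lower. Of 25 tested Erk response genes, which include no member, 23 and 20 were called higher at 8h and 20 and 17 lower from 8h to 8h2h. The lists of core pluripotency, LIF and Stat3, receptor tyrosine kinase, Wnt, Notch, arrestin, sterol and formative genes held no member either.

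Genes of the interferon and antigen-display pathways gave Tap1, Igtp, Oas1c and Xaf1, of 21 tested in a list written after the members were seen. Tap1 encodes a peptide transporter for class I antigen display. Tap1 read -0.19, -0.25 and -0.01 at 0h, -2.06, -2.07 and -1.86 at 8h, and -0.70, -0.77 and -0.83 at 8h2h on Rescue-labelled arrays. In KO-labelled cells the readings were -3.38, -2.13 and -4.07, then -4.50, -3.03 and -4.83, then -2.78 and -2.72. The -4.83 of array c at 8h lay below the dimmest signal well above background there (-4.575). Xaf1, an interferon-induced gene linked to cell death, read -1.76, -1.46 and -0.93 at 0h, -3.81, -3.80 and -3.81 at 8h, and -2.50, -2.50 and -2.73 at 8h2h on Rescue-labelled arrays, and 2.39, 0.90 and 1.54, then -0.31, -1.52 and -0.80, then 0.57 and 0.30 on KO-labelled arrays. The times did not overlap for Xaf1 in either line. Of the 17 tested genes of this list that were not members, 1 and 1 were called higher and 13 and 8 lower at 8h, against 19.4% and 17% of all genes lower, and 2 and 1 were called higher from 8h to 8h2h. Their medians at 8h were -1.01 and -0.58.

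The lines were then compared at each time, a contrast that the choice of members did not use, with limma and Benjamini-Hochberg adjustment over 15987 genes. At 0h, 90 members (53.9%) were called at an adjusted p below 0.05, 52 higher and 38 lower on KO-labelled arrays. Of all genes 26% were called, 10.2% higher and 15.8% lower. All genes here include some not read on every 0h array, unlike the members. At 8h, 91 members (54.5%) were called against 29% of all genes, 48 higher (12.1% of all genes) and 43 lower (16.9%). At 8h2h, with 2 KO-labelled arrays, 85 members (50.9%) were called against 26.9% of all genes, 53 higher (11.3%) and 32 lower (15.6%). The member medians of the difference were 0.11, 0.04 and 0.21, against -0.02, -0.01 and -0.03 over all genes. In the same direction at all 3 times, 29 members were called higher and 24 lower, while 47 were called at no time. At 0h every KO-labelled array was above every Rescue-labelled array for 58 members (16.5% of the genes read at 0h) and below for 49 (19.1%). The counts were 57 (25.5%) and 46 (23.1%) at 8h and 76 (31.2%) and 52 (30.8%) at 8h2h, where fewer arrays were compared. With no scaling between arrays the member counts were 37 higher and 14 lower at 0h, 33 and 21 at 8h and 37 and 12 at 8h2h. Without KO-labelled 8h2h array a the 8h2h counts were 31 higher and 17 lower, without array c 16 were lower, and without Rescue-labelled 8h2h array a 20 were lower.

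Slc11a1, which encodes a metal transporter of phagosomes, differed most at 0h among members. It read -2.19, -1.92 and -3.39 at 0h, -3.55, -3.48 and -3.83 at 8h, and -2.12, -2.05 and -2.54 at 8h2h on Rescue-labelled arrays. The KO-labelled readings were 0.88, 0.55 and 1.75, then 0.25, -0.44 and 0.33, then 1.44 and 1.73. Every KO-labelled array was above every Rescue-labelled array, and the difference was 3.56 ± 0.36 at 0h, 3.67 ± 0.36 at 8h and 3.82 ± 0.41 at 8h2h (log2, SE; limma adjusted p = 1.33e-05, 7.61e-06 and 2.03e-05). Vax2os, a lncRNA opposite the eye-field gene Vax2, was higher by 3.07 ± 0.43, 3.78 ± 0.43 and 3.25 ± 0.48 (SE; limma adjusted p = 0.000157, 2.33e-05 and 0.00025). Xaf1 was higher by 2.99 ± 0.34 at 0h (SE; limma adjusted p = 3.22e-05), and by 2.93 and 3.01 later. Sfrp1 was higher by 3.15 ± 0.38 at 0h (SE; limma adjusted p = 4.71e-05). Slc47a1, which encodes the exporter MATE1, was higher by 3.09 ± 0.25 at 8h2h (SE; limma adjusted p = 2.99e-06). Lrrc34, a leucine-rich repeat gene of pluripotent cells, was higher by 2.46 ± 0.28 at 8h (SE; limma adjusted p = 2.52e-05).

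Members lower on KO-labelled arrays included Tap1, Peg3 and Rflnb. Tap1 differed by -3.04 ± 0.44 at 0h and -2.12 ± 0.44 at 8h (SE; limma adjusted p = 0.000207 and 0.00247). Its 8h2h difference of -1.98 ± 0.49 (limma adjusted p = 0.00868) gave an adjusted p of 0.0599 without KO-labelled 8h2h array a and 0.09 with the left-out array. Peg3, a paternally expressed imprinted zinc-finger gene, read 2.11, 1.75 and 0.96 at 0h on Rescue-labelled arrays and -1.40, -0.57 and -1.23 on KO-labelled arrays. Peg3 differed by -2.68 ± 0.43, -2.39 ± 0.43 and -2.19 ± 0.48 at 0h, 8h and 8h2h (SE; limma adjusted p = 0.000437, 0.000843 and 0.00378). Rflnb, a refilin that binds filamin, differed by -2.02 ± 0.18, -2.64 ± 0.18 and -2.80 ± 0.20 (SE; limma adjusted p = 4.46e-06, 4.97e-07 and 1.26e-06). Bik differed by -2.07 ± 0.20 at 0h (SE; limma adjusted p = 9.87e-06) and Ccno by -2.69 ± 0.55 (SE; limma adjusted p = 0.00255). Trim47, a RING-finger gene, had 0h means of 1.23 ± 0.34 and 1.18 ± 0.40 (SD, n = 3) with a difference of -0.05 ± 0.35, and was lower by -2.16 ± 0.35 at 8h and -2.09 ± 0.40 at 8h2h (SE; limma adjusted p = 0.000443 and 0.0015). Chst15, a chondroitin sulfotransferase gene, was not well above background on KO-labelled 8h arrays, and was at least 3.17-fold higher on Rescue-labelled arrays at 8h (limma adjusted p = 2.25e-06). Cyp1a1 was at least 1.22-fold higher on Rescue-labelled arrays at 8h2h (limma adjusted p = 2.16e-05), and the adjusted p was 0.057 with normexp background correction and 0.0615 with the left-out array.

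**Figure D5:**
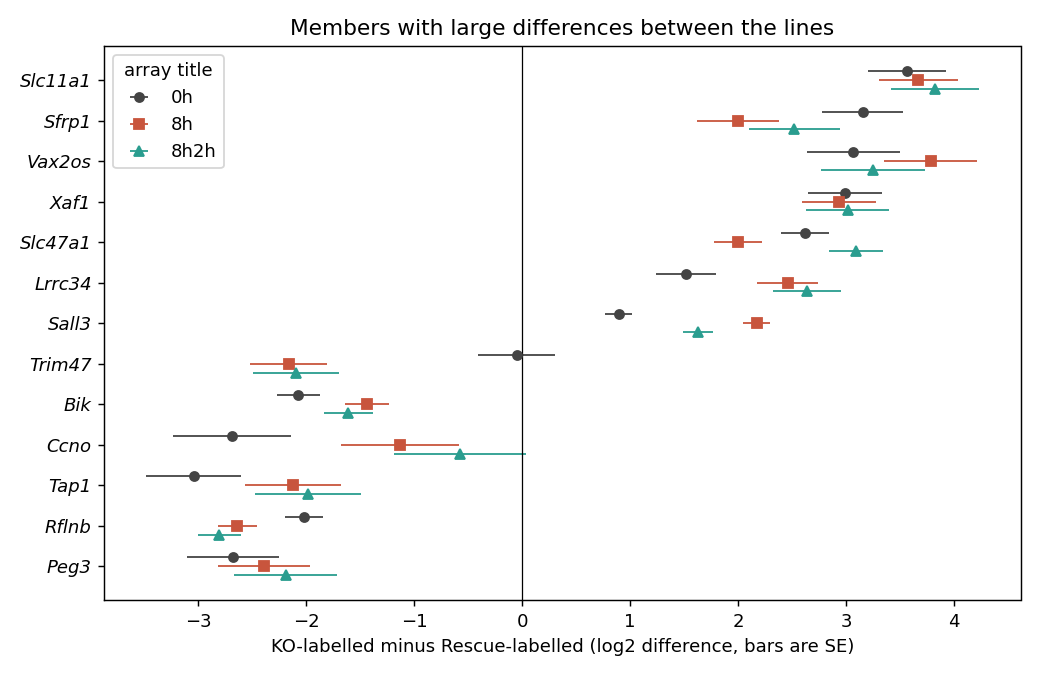
KO-labelled minus Rescue-labelled difference (x axis, log2, bars are the limma SE) of 13 members (y axis) at 0h, 8h and 8h2h. Slc11a1, Vax2os and Xaf1 stay near 3 or above at every time, and Trim47 is near 0 at 0h and near -2 afterwards.

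Signalling members and others described above also differed between the lines. Fgf4 was higher on KO-labelled arrays by 1.19 ± 0.18, 1.11 ± 0.18 and 1.37 ± 0.20 at 0h, 8h and 8h2h (SE; limma adjusted p = 0.000353, 0.000484 and 0.000274). Its arrays did not overlap between lines at any time. Smad6 was higher by 1.35 ± 0.28, 1.30 ± 0.28 and 1.30 ± 0.32 (SE; limma adjusted p = 0.00312, 0.00335 and 0.00742), and the last gave 0.0647 without KO-labelled 8h2h array a and 0.0738 with no scaling. Kbtbd11 was higher by 0.91 ± 0.15, 0.89 ± 0.15 and 0.97 ± 0.16 (SE; limma adjusted p = 0.000463, 0.00044 and 0.000623), but with the mean of its probes in place of the brightest by 0.51, 0.12 and 0.25 (limma adjusted p = 0.146, 0.763 and 0.548). Sall3 was higher by 0.89 ± 0.12, 2.17 ± 0.12 and 1.63 ± 0.14 (SE; limma adjusted p = 0.000139, 1.93e-07 and 3.72e-06). Foxo6 was higher by 1.75 ± 0.20 at 0h and 1.65 ± 0.23 at 8h2h (SE; limma adjusted p = 3.7e-05 and 0.000152). Spic was higher by 1.44 ± 0.28 at 0h (SE; limma adjusted p = 0.00191) and by 1.47 ± 0.31 at 8h2h (SE; limma adjusted p = 0.00341), where leaving out KO-labelled 8h2h array a gave 0.0515. Hhip was higher by 2.16 ± 0.37 at 0h (SE; limma adjusted p = 0.000745). At 8h2h Rgma was higher by 1.48 ± 0.30 (SE; limma adjusted p = 0.00252), whereas at 0h the difference was -0.36 ± 0.27 (SE; limma adjusted p = 0.363). With the mean of its probes the 8h2h difference was 0.86 (limma adjusted p = 0.00565).

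Smaller line differences turned on single arrays. Nodal differed by -0.54 ± 0.14 at 0h and -0.51 ± 0.15 at 8h2h (SE; limma adjusted p = 0.0113 and 0.0253). Without KO-labelled 0h array a the first gave 0.0528. The second gave 0.117 without KO-labelled 8h2h array a, 0.109 without array c, and 0.0787 and 0.0674 without Rescue-labelled 8h2h arrays a and b. Cdkn1b was higher by 0.74 ± 0.22 at 0h (SE; limma adjusted p = 0.0241), with 0.0718 and 0.073 without KO-labelled 0h arrays a and c and 0.0706 without Rescue-labelled 0h array c. Bbc3 was lower by -0.74 ± 0.19 at 0h (SE; limma adjusted p = 0.0107), with 0.0534 without KO-labelled 0h array a. With no scaling between arrays, limma called none of these 0h differences (adjusted p = 0.532, 0.229 and 0.298 for Nodal, Cdkn1b and Bbc3). Reep1, Rab11fip5 and Rgma were called in opposite directions at different times. Reep1, which shapes the endoplasmic reticulum, was higher by 0.51 at 0h and lower by -0.66 at 8h (limma adjusted p = 0.0331 and 0.00767). Rab11fip5, a Rab11 effector of recycling endosomes, was higher by 0.86 at 0h and lower by -0.69 at 8h (limma adjusted p = 0.00618 and 0.0187). For Rgma the 8h difference was -0.77 ± 0.27 (SE; limma adjusted p = 0.0462), and that call was lost on leaving out any single array except Rescue-labelled 0h arrays a and c, 8h array b and 8h2h array a, with adjusted p of 0.0502 to 0.163, and with the mean of its probes (-0.36, adjusted p = 0.151).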

How the data were processed

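Total RNA of 18 mouse embryonic stem cell samples was labelled from 100 ng each and hybridised to 1-colour Agilent arrays, per the labels. Per the file headers, the authors extracted spots with Agilent Feature Extraction 12.0.1.1. The deposited processed signal is an intensity, background-subtracted and not scaled between arrays, and the deposited spot flags (other values, not intensities) say which spots were well above background. The deposited table of values held the same intensities for all 1133568 spots. Probes matched 22911 gene symbols through RefSeq transcript names. A probe was kept if well above background on all used arrays of at least 1 group, and 86 genes with outlier spots were left out. The number of arrays limits the precision. Values here are log2 of that signal less the 75th percentile of the array, so a level is relative to that percentile and levels of different genes are not compared.

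A group-means model was fitted in limma 3.58.1 (R 4.3.3, version 1.17.8 of data.table) on 17 arrays, with two-sided p-values adjusted by Benjamini and Hochberg over 15987 genes. The fit was tested on simulated data. Genes called have an adjusted p below 0.05. The genes named are the 8 members with the lowest 8h minus 0h and the 8 with the highest 8h2h minus 8h, those in gene lists, the 4 highest and 4 lowest called line differences at each time, the members at the thresholds, and the 3 highest and 3 lowest at 8h2h against 0h. Others were named after their values were seen. A member that the rule would name is not reported here. The members and lists were chosen with earlier results of these data known. Alternatives were normexp background correction (offset 50), quantile normalization, no scaling, other probe filters, the mean of probes, all 18 arrays, other thresholds, a replicate block, a trended and robust prior, only the groups compared, and leaving out each array. In their deviations from group means, same-slide arrays correlated above 0.1 in 27 of 40 pairs (median r 0.176, highest 0.732). The main fit held no term for the replicate letters, so its p-values leave out what arrays of 1 slide share. Counts with a replicate block are given below. Replicates correlated at 0.983 to 0.996 across genes.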

Additional observations from a re-analysis of the deposited data

Results flagged for a closer look

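For 3 members the difference between the lines had opposite signs at different times, on every slide used and with limma calls at both. Reep1 was higher on KO-labelled arrays by 0.51 at 0h and lower by -0.66 at 8h and -0.59 at 8h2h (log2). Rab11fip5 was higher by 0.86 at 0h and lower by -0.69 at 8h. Rgma was lower by -0.77 at 8h and higher by 1.48 at 8h2h on its brightest probe, and with the mean of its probes the 8h call was lost (-0.36, limma adjusted p = 0.151). The change between times itself was not tested, because the differences between times were used to choose the members.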

How the results depend on the processing

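The set numbered 167 genes, against 60 with normexp background correction (59 shared), 90 with thresholds of -1 and 0.8, 345 with -0.6 and 0.4, and 102 with every change required on every slide (100 shared). With all 18 arrays it numbered 181 (160 shared), and leaving out 1 array gave 136 to 189. Genes called between the lines numbered 4151 at 0h, 4630 at 8h and 4296 at 8h2h. With no scaling they numbered 1527, 1787 and 1560, with no filter on dim probes 6759, 7069 and 7230, and with only the groups compared 1983 at 0h. Unscaled medians over all genes shifted by 0.07 to 0.34 (log2). Members called lower numbered 14, 21 and 12 with no scaling, and members called higher at 8h numbered 30 with normexp. Leaving out 1 array gave 3248 to 4215, 3519 to 5477 and 2606 to 5161 genes, 44 to 56, 38 to 53 and 31 to 57 members higher, and 30 to 43, 34 to 46 and 16 to 35 lower. KO-labelled 8h2h array a gave the 2606 and the 31. The replicate block gave 4890, 5406 and 4767 genes and 56, 54 and 59 members higher. Beside it, 2 named calls changed, both gained at 8h2h (Kank1, adjusted p = 0.0204, and Pknox2, 0.0291, by limma). The Lrtm2 difference at 8h, where the gene was not well above background in either line, reversed to -0.075 with normexp. The causes were not tested. Of the other values for single named genes, 6109 stayed on their side of the threshold or within 1 SD, 185 moved, 106 lost a call and 13 gained one. Signal over background limits the 8 and 15 members not read at 8h.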

Other observations

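Of 6393 probes without a RefSeq symbol read at 0h, 57 (0.892%) passed all 4 thresholds, a count added after the data were seen. Some members lie next to each other in the genome. These were Tekt1 and Smtnl2 on chromosome 11, Acot2 and Acot1 on chromosome 12, Frs3os and Pgc on chromosome 17, Gpr19, Cdkn1b and Lockd on chromosome 6, Leng9 and Cdc42ep5 on chromosome 7, and Kbtbd11 and Gm35340 on chromosome 8. How often genes that are not members lie next to each other was not counted.

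The drop from 0h to 8h differed by 1 or more on the log2 scale between the lines for 30 members, 17 lower on KO-labelled and 13 lower on Rescue-labelled arrays. Gadd45b, Pdpn, Slc2a4 and Trps1 are given next as further members, not as examples of that count. Gadd45b, a growth-arrest gene, had means of 3.08, 1.68 and 2.76 on Rescue-labelled arrays and 2.39, 0.44 and 1.86 on KO-labelled arrays. Pdpn, which encodes the membrane protein podoplanin, had 4.21, 2.71 and 3.34, and 2.84, 1.49 and 2.93. Slc2a4, which encodes the insulin-responsive glucose transporter GLUT4, had -2.05, -3.48 and -2.36, and -1.77, -2.89 and -1.49. Trps1, a GATA-type repressor, had -1.36, -3.89 and -3.21, and -0.03, -1.45 and -0.76.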
